A study of Homo sapiens with 6 samples.

Results

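Untreated HMLER cells and untreated MDA-MB-231 cells were compared transcript by transcript, using the 2008 transcripts (1853 gene symbols) present in both deposited tables, out of 2009 transcripts in the HMLER table and 43497 in the MDA-MB-231 table. HMLER is a human mammary epithelial line transformed in culture, and MDA-MB-231 is a line derived from a human breast cancer. The series holds 6 RNA-seq libraries in 4 groups: 2 libraries of untreated HMLER, 2 of HMLER given decitabine (DAC, 5-aza-2'-deoxycytidine, 10 µM every day for 72 h), and 1 library each of untreated and DAC-treated MDA-MB-231 on the same schedule. The HMLER medium also contained EGF, hydrocortisone, puromycin and insulin, which were not listed for MDA-MB-231, so the lines differed in medium as well as in origin. The cell line label of the untreated MDA-MB-231 library reads MDA-MB-232, whereas its title reads MDA-MB-231, and the title was followed.

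Levels are in FPKM, fragments scaled by transcript length and by the number of mapped fragments, so that genes can be set side by side per length. Each HMLER condition has a single value merged over its 2 libraries, and each MDA-MB-231 condition was sequenced once, so no replicate error could be computed, no test was possible and no p-value is given. The bounds printed after MDA-MB-231 values in brackets are those given by Cuffdiff for that 1 library. The lines were quantified in separate runs, so the comparison was restricted to ranks and to large differences: a transcript was called silent under 0.1 FPKM and on at 5 FPKM or more. The HMLER table lists only transcripts whose level was higher after DAC (the lowest ratio of treated to untreated was 2.001 and the lowest treated level 1.003 FPKM). A low untreated HMLER level and a higher level after DAC were thus conditions for being listed, and neither is a finding here.

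DAC is a cytidine analogue that traps DNA methyltransferases, so that methylation of CpG sites is lost as cells divide. Promoters rich in CpG sites are usually free of methylation, whereas many germ-cell genes and genes of other lineages are methylated and silent in somatic cells. Tumour lines differ in which of these genes they keep silent, so the untreated level of a DAC-responsive transcript in another line shows whether its silence is shared.

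Most of the listed transcripts that were silent in HMLER were also silent in MDA-MB-231. Fewer of the shared transcripts were silent in untreated HMLER (8.12%) than in untreated MDA-MB-231 (28.9%). The 120 silent in both are for that reason a smaller share of those silent in MDA-MB-231. Of the 163 transcripts silent in untreated HMLER (161 symbols, 72 of the transcripts listed at 0), 120 (73.6%) were also silent in untreated MDA-MB-231, 24 lay between 0.1 and 1 FPKM, 11 between 1 and 5 FPKM, and 8 (4.91%) were on. Of the 581 shared transcripts silent in untreated MDA-MB-231, 120 (20.7%) were silent in untreated HMLER, 310 lay between 0.1 and 1 FPKM, 125 between 1 and 5 FPKM, and 26 were on. Over all 2008 shared transcripts, 28.9% were silent and 23.7% were on in untreated MDA-MB-231, and of all the transcripts quantified in that line 51.8% were silent and 23.4% were on. At the other end, 300 shared transcripts were on in untreated HMLER, and 198 of these (66.0%) were on and 26 (8.67%) silent in MDA-MB-231. Across the 2008 transcripts Spearman's rank correlation of the untreated levels was 0.54, and it was 0.52 over the 1384 transcripts at 0.1 FPKM or more in both lines. Transcripts of a gene share reads, so these points are not independent.

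**Figure D1:**
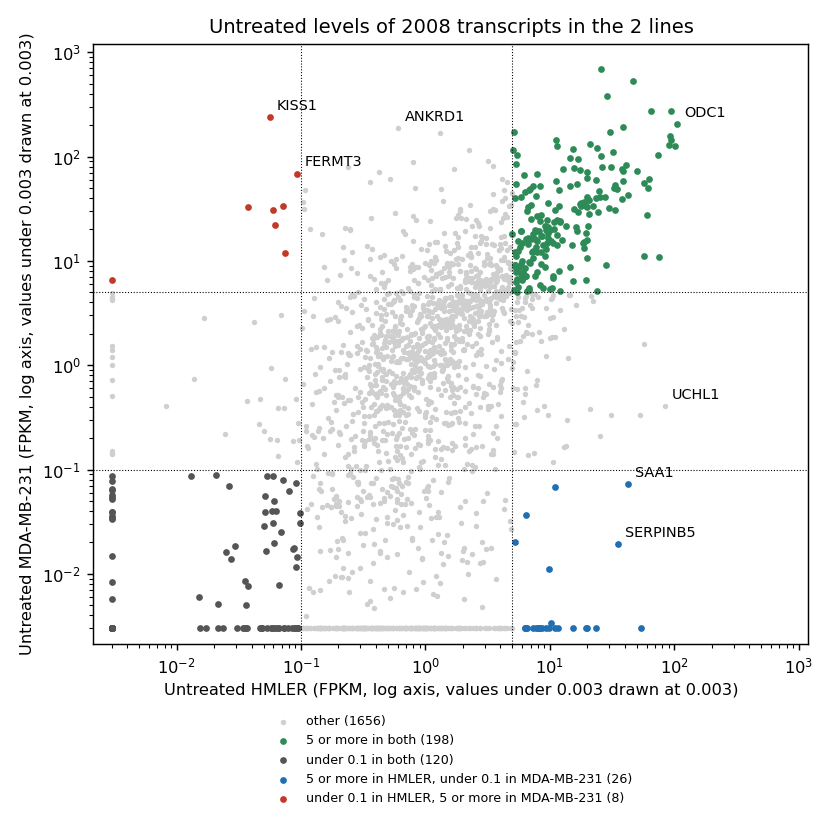
Untreated MDA-MB-231 level against untreated HMLER level for the 2008 shared transcripts, each point 1 transcript, both axes in FPKM on a log scale, with dotted lines at 0.1 and 5 FPKM. The 8 red points at the upper left are silent in HMLER and on in MDA-MB-231, the 120 dark points at the lower left are silent in both, and the 26 blue points at the lower right are on in HMLER and silent in MDA-MB-231.

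The 8 transcripts silent in HMLER and on in MDA-MB-231 were those of KISS1, FERMT3, EDN1, MARCH4, SLC17A9, EVPL, DAW1 and ABI3. They encode a secreted peptide precursor, an integrin adaptor, a vasoconstrictor, a ubiquitin ligase, a nucleotide transporter, a cornified envelope protein, a cilium assembly factor and an actin regulator. The starts of KISS1 and MARCH4 are shown as listed in RefSeq on GRCh38.p14, from 250 bases before to 50 bases after the transcription start on the gene's own strand. The drug leads to loss of methylation at CpG sites, and these starts hold few of them. At the annotated starts compared below, the 8 genes ranged from 6 sites (MARCH4) to 22 (SLC17A9). CpG sites are in capitals. The KISS1 window is chr1:204196442-204196741, minus strand, with 9 CpG sites, and the MARCH4 (current symbol MARCHF4) window is chr2:216372434-216372733, minus strand, with 6.
KISS1: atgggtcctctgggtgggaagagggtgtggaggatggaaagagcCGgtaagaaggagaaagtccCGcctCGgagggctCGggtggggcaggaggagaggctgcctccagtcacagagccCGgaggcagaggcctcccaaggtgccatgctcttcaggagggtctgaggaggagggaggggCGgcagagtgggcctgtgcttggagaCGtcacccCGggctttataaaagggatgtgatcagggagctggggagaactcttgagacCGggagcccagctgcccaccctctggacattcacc
MARCH4: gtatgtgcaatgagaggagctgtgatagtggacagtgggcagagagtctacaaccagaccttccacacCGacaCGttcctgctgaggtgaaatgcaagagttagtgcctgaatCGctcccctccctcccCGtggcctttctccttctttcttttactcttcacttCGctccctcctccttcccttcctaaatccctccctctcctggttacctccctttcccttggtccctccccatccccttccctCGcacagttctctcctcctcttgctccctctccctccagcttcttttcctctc

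KISS1 (chr1:204159469-204165619 in hg19, minus strand) encodes the precursor of the kisspeptins, ligands known both for the control of puberty and as suppressors of metastasis. It stood at 0.0559 FPKM in untreated HMLER and at 239.9 FPKM [131.5 to 348.4] in untreated MDA-MB-231. After DAC it was at 17.0 FPKM in HMLER and at 274.8 FPKM [151.0 to 398.6] in MDA-MB-231. Among the 2008 shared transcripts it ranked 1896 from the top in untreated HMLER and 6 from the top in untreated MDA-MB-231, and it ranked 357 of all 43497 transcripts of the MDA-MB-231 table. Its difference between the untreated lines, 10.59 on the log2(FPKM + 0.1) scale, was the largest of the 2008.

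FERMT3 (chr11:63973398-63991368, plus strand) encodes kindlin-3, which activates integrins in blood cells. It was at 0.0933 FPKM in untreated HMLER and 2.30 FPKM after DAC, and at 68.8 FPKM [35.8 to 101.7] in untreated MDA-MB-231 and 59.1 FPKM after DAC. In the untreated MDA-MB-231 library 19 of the 23 blood cell markers examined were under 0.1 FPKM, summed over the transcripts of each gene, as were 41.1% of all gene symbols in its table. Of the 19, 10 were at 0, PTPRC (CD45), the leukocyte common antigen, was at 0.0247 FPKM, and of the 23 only CD68 (137.1 FPKM) was on. EDN1 (chr6:12290594-12297427, plus strand) encodes endothelin-1, a peptide that constricts vessels. Its level was 0.0710 FPKM in untreated HMLER, 2.32 FPKM in HMLER after DAC, 33.5 FPKM [17.0 to 49.9] in untreated MDA-MB-231 and 9.59 FPKM [3.46 to 15.7] in MDA-MB-231 after DAC. The treated lines were therefore closer to each other than the untreated ones, but the rise in HMLER was a condition for being listed.

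MARCH4 (chr2:217122588-217237206, minus strand), a membrane-bound ubiquitin ligase, was at 0.0377 FPKM in untreated HMLER, 7.33 FPKM in HMLER after DAC, 32.6 FPKM [17.9 to 47.4] in untreated MDA-MB-231 and 39.9 FPKM in MDA-MB-231 after DAC. SLC17A9 (chr20:61584059-61600937, plus strand), which loads ATP into secretory vesicles, was at 0.0600, 4.94, 31.0 [16.9 to 45.1] and 28.6 FPKM in the same order. Both genes have a single transcript in the MDA-MB-231 table, so no other isoform carries their reads. EVPL (chr17:74000583-74023387, minus strand), or envoplakin, links desmosomes to the cornified envelope of stratified epithelia. Its levels were 0.0619 FPKM in untreated HMLER and 1.86 FPKM after DAC, against 22.1 FPKM [12.1 to 32.1] in untreated MDA-MB-231 and 10.9 FPKM [5.86 to 15.9] after DAC. DAW1 (chr2:228735770-228789060, plus strand), needed to assemble the dynein arms of motile cilia, was at 0.0741 and 4.11 FPKM in HMLER and at 11.9 [4.08 to 19.7] and 11.6 FPKM in MDA-MB-231. ABI3 (chr17:47287773-47300587, plus strand), a member of the Abl interactor family in the actin-nucleating WAVE complex, was listed at 0 and then 1.24 FPKM in HMLER, and was at 6.55 [1.58 to 11.5] and 7.50 FPKM in MDA-MB-231.

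In the 8 genes as a group, HMLER after DAC remained below untreated MDA-MB-231 in 8 of 8, and 2 (KISS1 and MARCH4) reached 5 FPKM. In MDA-MB-231 itself 0 of the 8 were more than 2-fold higher after DAC, and 2 (EDN1 and EVPL) were under 1/2 of their untreated level, where 7.98% of the 10197 transcripts on in untreated MDA-MB-231 did so. The lower Cuffdiff bound was at 5 FPKM or more for 6 of the 8, the exceptions being DAW1 and ABI3. KISS1, MARCH4, SLC17A9, EVPL and DAW1 have 1 transcript each in the MDA-MB-231 table. FERMT3, EDN1 and ABI3 have 2, and for these the HMLER level of the other transcript is not in the table used, so silence is shown for the listed transcript only.

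**Figure D2:**
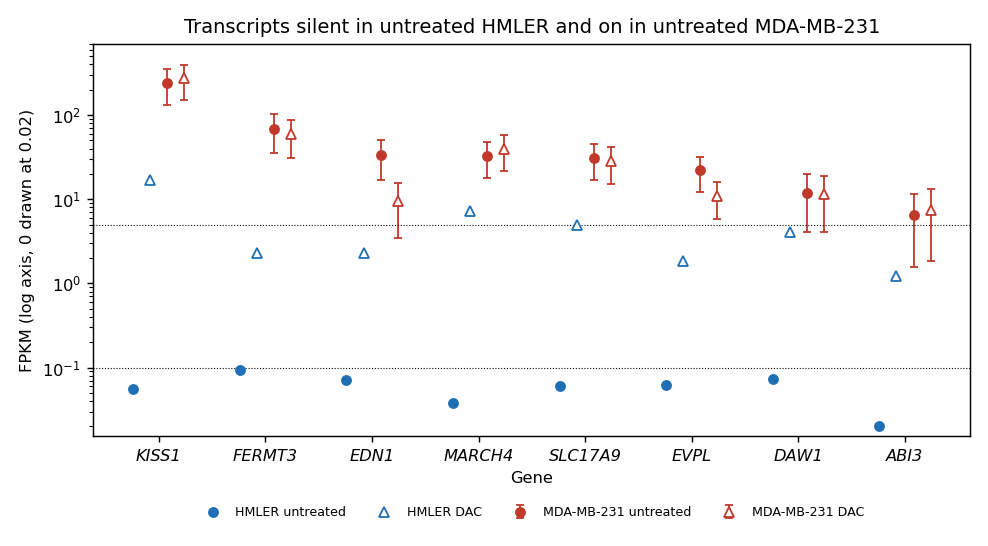
Level in FPKM (log axis) of the 8 transcripts silent in untreated HMLER and on in untreated MDA-MB-231, with circles for untreated and triangles for DAC-treated cells, HMLER in blue and MDA-MB-231 in red, bars for the Cuffdiff bounds, and dotted lines at 0.1 and 5 FPKM. Every red circle lies above every blue symbol of the same gene, and EDN1 and EVPL are the genes whose red triangle falls below 1/2 of the red circle.

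Just inside the HMLER limit were DAW1 and FERMT3, and just outside it were ARHGAP30, a GTPase-activating protein (0.104 FPKM in HMLER, 36.9 FPKM in MDA-MB-231), and UCA1, a noncoding RNA first described in bladder cancer (0.105 and 31.5 FPKM). On the MDA-MB-231 side ABI3 and DAW1 lay just inside, and RNU12, the U12 spliceosomal RNA (0 and 4.96 FPKM), and SNAR-G1, a short noncoding RNA (0 and 4.51 FPKM), just outside. These 2 transcripts are 149 and 128 bases long, shorter than library fragments usually are, and their Cuffdiff bounds reached 0. The 11 HMLER-silent transcripts between 1 and 5 FPKM in MDA-MB-231 also included DAPK1 (chr9:90112143-90323549, plus strand), the death-associated protein kinase studied by the submitters. DAPK1 was at 0.0419 FPKM in untreated HMLER, 1.61 FPKM in HMLER after DAC, 2.60 FPKM [0.785 to 4.42] in untreated MDA-MB-231 and 3.34 FPKM [1.28 to 5.404] in MDA-MB-231 after DAC. The untreated lines thus differed by 4.25 on the log2(FPKM + 0.1) scale, and the MDA-MB-231 bounds before and after DAC overlapped.

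Beyond the silent class, 121 of the 2008 transcripts (6.03%) were 10-fold or more higher in MDA-MB-231 and 185 (9.21%) 10-fold or more higher in HMLER, on the log2(FPKM + 0.1) scale. The balance of these counts depended on how the tables were put on a common scale: the FPKM of the shared transcripts summed to 6930 in untreated HMLER and 15858 in untreated MDA-MB-231, and after scaling MDA-MB-231 to the HMLER sum the counts were 52 and 229, with the median difference moving from 0.02 to -0.81. It also depended on the value added before taking logs, with 55 transcripts higher in MDA-MB-231 and 24 in HMLER when 1 FPKM was added, and 138 and 424 when 0.01 FPKM was added. Of those higher in MDA-MB-231, 96 were on there and 85 were under 1 FPKM in HMLER. The transcripts named next were chosen for mention after their values had been seen, except the members of the endothelial marker list. ESAM, an endothelial adhesion molecule, was at 0.240 FPKM in untreated HMLER and 79.6 FPKM [43.7 to 115.5] in untreated MDA-MB-231. TIE1, an endothelial receptor tyrosine kinase, was at 0.826 FPKM in HMLER and 49.96 FPKM [27.4 to 72.5] in MDA-MB-231. ROBO4, a guidance receptor of vessels, was at 2.06 FPKM in HMLER and 19.2 FPKM [10.3 to 28.0] in MDA-MB-231. TEK, the other endothelial marker in both tables, was silent in both lines, at 0.0213 FPKM in HMLER and 0.00515 FPKM in MDA-MB-231. The 4 endothelial markers in both tables had medians of 0.533 FPKM in HMLER and 34.6 FPKM in MDA-MB-231, with a median difference of 4.46 on the log2(FPKM + 0.1) scale, and 2 of the 4 were 10-fold or more higher in MDA-MB-231. Of all 14 endothelial markers examined in MDA-MB-231, 5 were on (ENG, ESAM, TIE1, EGFL7 and ROBO4), where 37.2% of all gene symbols of its table were, and 6 were under 0.1 FPKM, among them the defining genes PECAM1 (0.0110 FPKM), VWF (0.00816 FPKM) and CDH5 (0.0777 FPKM). ANKRD1, a YAP target that encodes a muscle ankyrin repeat protein, was at 0.597 FPKM in HMLER and 188.3 FPKM [95.6 to 281.0] in MDA-MB-231. CYBA, the small subunit of the phagocyte NADPH oxidase, was at 1.32 and 166.9 FPKM. FLNC, a filamin of striated muscle, was at 0.424 and 71.9 FPKM. Apart from TEK, the transcripts named here with an HMLER level were low but not silent in HMLER.

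The 120 transcripts silent in both lines came from 120 genes, and 42 of them were listed at 0 in both untreated lines, 58 in HMLER and 71 in MDA-MB-231. Cancer-testis genes are normally expressed in male germ cells and are methylated in somatic tissue. Those on the list used here made up 11 of the 120, out of 17 transcripts of that list shared by the tables. The list is not complete: CT62, a testis antigen, and FMR1NB, a testis membrane protein gene, are outside it and also among the 120. Of all 2008 transcripts 120 (5.98%) were silent in both lines. The other 6 cancer-testis transcripts were listed at 0 in untreated HMLER and lay between 0.150 FPKM (MAGEB2) and 1.39 FPKM (CSAG1) in untreated MDA-MB-231, these 2 being named as the ends of the range. The cancer-testis transcripts were therefore silent in untreated HMLER in 17 of 17 cases and in untreated MDA-MB-231 in 11 of 17. Of all shared transcripts 8.12% were silent in untreated HMLER and 28.9% in untreated MDA-MB-231. The lower Cuffdiff bound in MDA-MB-231 was 0 for each of the other 6, so a difference between the lines is not resolved for them. MAGE, SPANX, SSX, PAGE and CT45 genes have near-identical copies, and reads shared by such copies may have been divided among them, so single members are uncertain.

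The X chromosome carried 18 of the 120 transcripts (15%), compared with 71 of the 2008 shared transcripts (3.54%) and 1154 of the 22535 silent transcripts of the MDA-MB-231 table (5.12%). Of the 18, 11 were the cancer-testis transcripts just described and 7 were not on that list. Chromosome 19 carried 20 (16.7%), compared with 211 of the shared transcripts (10.5%) and 5.33% of the silent MDA-MB-231 transcripts.

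The starts of BEX1, which had the highest level of the 120 in MDA-MB-231 after DAC, and of CLDN6, a claudin gene, are shown as examples of CpG-rich starts silent in both untreated lines. They are not typical of the class. At the annotated starts compared below, the class median was 13 CpG sites (upper quartile 24.5), while BEX1 had 25 and CLDN6 had 30. The BEX1 window is chrX:103064122-103064421, minus strand, with 25 CpG sites, and the CLDN6 window is chr16:3018134-3018433, minus strand, with 21, both from RefSeq on GRCh38.p14 with CpG sites in capitals.
BEX1: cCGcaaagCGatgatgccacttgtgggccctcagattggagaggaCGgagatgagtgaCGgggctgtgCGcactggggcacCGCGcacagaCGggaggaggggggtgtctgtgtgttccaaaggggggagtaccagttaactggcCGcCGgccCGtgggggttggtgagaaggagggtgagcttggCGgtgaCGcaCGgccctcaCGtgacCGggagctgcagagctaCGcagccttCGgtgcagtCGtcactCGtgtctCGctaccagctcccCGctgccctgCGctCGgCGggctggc
CLDN6: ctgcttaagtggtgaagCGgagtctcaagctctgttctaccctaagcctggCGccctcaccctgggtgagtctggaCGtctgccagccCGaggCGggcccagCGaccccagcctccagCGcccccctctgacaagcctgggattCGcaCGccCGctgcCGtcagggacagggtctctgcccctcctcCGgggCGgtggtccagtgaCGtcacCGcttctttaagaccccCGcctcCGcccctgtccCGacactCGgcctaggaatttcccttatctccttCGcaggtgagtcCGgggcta

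After DAC, 30 of the 120 (25%) reached 1 FPKM in MDA-MB-231, compared with 671 of all 22535 transcripts silent in that line (2.98%). The 120 were listed because they rose after DAC in HMLER, and the 22535 were not chosen in that way, so the shares are not alike. Among all 2008 shared transcripts, 581 were under 0.1 FPKM in untreated MDA-MB-231 and 258 after DAC, so a rise was not particular to the 120. A further 47 of the 120 lay between 0.1 and 1 FPKM and 43 stayed under 0.1 FPKM, 18 of them at 0. These are levels of the listed transcripts, and summed over all transcripts of each gene 33 of the 120 genes reached 1 FPKM in treated MDA-MB-231, 48 lay between 0.1 and 1 FPKM and 39 were under 0.1 FPKM. HORMAD1, a protein of the meiotic chromosome axis, was at 3.64e-05 FPKM for the listed transcript and at 1.19 FPKM for the gene, and CT45A5, SERPINB7, TAC1 and IGF2 also lay in a higher range by gene than by transcript (these 5 were chosen for mention after their values had been seen). The median level after DAC was 1.73 FPKM in HMLER, where a level of at least 1 FPKM was a condition for being listed, and 0.218 FPKM in MDA-MB-231, and HMLER was the higher in 112 of the 120. On the X chromosome 8 of the 18 (44.4%) reached 1 FPKM in MDA-MB-231, where 27 of the 1154 silent X transcripts of its table (2.34%) did so. The 1154 were likewise not chosen for a rise in HMLER. Of the 8 X-linked transcripts that reached 1 FPKM, SPANXC, SPANXE, MAGEC2 and MAGEC1 were on the cancer-testis list. FMR1NB, IL2RG, BEX1 and LOC100129520, the last named after its values were seen, were not on the list.

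SPANXC, a sperm protein gene, was listed at 0 in both untreated lines and was at 41.3 FPKM in HMLER and 4.13 FPKM [0 to 11.5] in MDA-MB-231 after DAC. PAGE5, another testis antigen, was also at 0 in both untreated lines and was at 21.5 FPKM in treated HMLER but 0.211 FPKM in treated MDA-MB-231. FMR1NB, a testis membrane protein gene, went from 0 in both lines to 10.9 FPKM in HMLER and 1.99 FPKM in MDA-MB-231. These 3 genes were higher in HMLER than in MDA-MB-231 after DAC. BEX1, a small brain-expressed signalling adaptor, was at 0 FPKM in untreated HMLER, 7.84 FPKM in treated HMLER, 0.0357 FPKM in untreated MDA-MB-231 and 4.198 FPKM [0 to 9.78] in treated MDA-MB-231. CLDN6, an embryonic tight junction protein, was at 0.0588 and 15.1 FPKM in HMLER and at 0.0402 and 2.05 FPKM in MDA-MB-231. RNASE7, an antimicrobial ribonuclease of skin, was at 0.0666 and 12.01 FPKM in HMLER and at 0 and 0.109 FPKM in MDA-MB-231. IL2RG, the shared gamma chain of interleukin receptors, was at 0.0214 and 9.75 FPKM in HMLER and at 0 and 1.78 FPKM in MDA-MB-231. CKM, the muscle creatine kinase, was at 0.0588 and 8.19 FPKM in HMLER and at 0 and 1.74 FPKM in MDA-MB-231. In each of these 5 genes the treated level was higher in HMLER than in MDA-MB-231.

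Several of the 15 transcripts with the highest level in treated HMLER, as listed, stayed under 1 FPKM in treated MDA-MB-231. PRF1, the perforin of cytotoxic lymphocytes, was at 6.65 FPKM in treated HMLER and 0.0196 FPKM in treated MDA-MB-231. IGF2, the imprinted fetal growth factor, was at 6.403 FPKM in treated HMLER and listed at 0 in treated MDA-MB-231, where the transcripts of the gene summed to 0.138 FPKM. ANKRD20A12P, a pseudogene with close copies, was at 8.11 FPKM in treated HMLER and listed at 0 in treated MDA-MB-231. The value of MIR548H3 (41.0 FPKM in treated HMLER, 0 in MDA-MB-231) is for an 80-base hairpin, shorter than the usual library fragment, and cannot be read as a level. TUBA3E, a testis tubulin with close copies, was at 8.04 FPKM in treated HMLER and 1.11 FPKM in treated MDA-MB-231, SPANXE at 10.3 and 1.20 FPKM, and SERPINB7, an epidermal protease inhibitor, at 6.002 and 0.760 FPKM. For SERPINB7 the transcripts of the gene summed to 0.389 FPKM in untreated and 2.21 FPKM in treated MDA-MB-231, so the listed transcript was silent but the gene was not, and the gene as a whole passed 1 FPKM after DAC.

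In the opposite direction, 8 of the 120 were higher in treated MDA-MB-231 than in treated HMLER. HOXD13, which patterns the distal limb and the urogenital tract, was at 1.15 FPKM in treated HMLER and 2.76 FPKM [0.125 to 5.39] in treated MDA-MB-231. MAFA, a transcription factor of pancreatic beta cells, was at 1.69 and 3.60 FPKM, MAGEC2 at 1.78 and 2.15 FPKM, and CT62, a testis antigen outside the list used, at 1.31 and 2.18 FPKM. The other genes with the highest levels in treated MDA-MB-231 were MYO1G, a myosin of blood cells (5.27 FPKM in treated HMLER and 2.75 FPKM in treated MDA-MB-231), TDRD12, which acts in the silencing of transposons in the germ line (3.48 and 2.42 FPKM), and ZNF560, a zinc-finger gene (3.06 and 2.04 FPKM). All of these levels in MDA-MB-231 were within a few FPKM of 0, and most lower bounds were at or near 0.

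**Figure D3:**
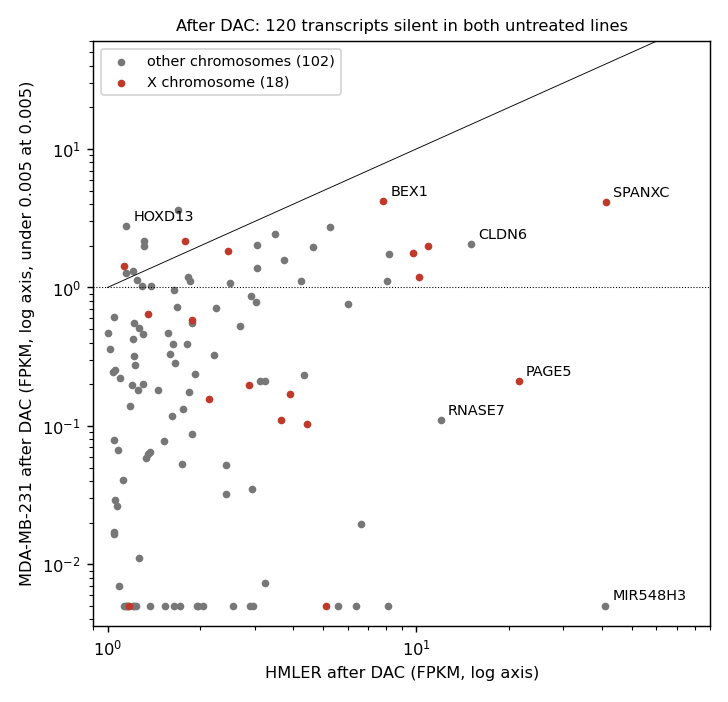
Level after DAC in MDA-MB-231 against level after DAC in HMLER for the 120 transcripts silent in both untreated lines, in FPKM on log axes, with X-linked transcripts in red, a dotted line at 1 FPKM and a solid line of equality. In all, 112 points lie below the line of equality, and 30 reach the dotted line.

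Silence in the MDA-MB-231 library was limited by depth for short transcripts. In low values of transcripts longer than 2000 bases that have no other transcript at their symbol or locus, the untreated library stepped by 0.0232 FPKM per read and kilobase of effective length (length less 240 bases), and 100% of 700 such values came within 0.1 read of a whole number. A count of 0 allows up to 3 reads, which corresponds to more than 0.1 FPKM for 30 of the 120 transcripts (0.424 FPKM for SPANXC), and 2 more were too short for the estimate. For these 32, a level of 0 does not show that the level was under 0.1 FPKM. Without them, 24 of 88 (27.3%) reached 1 FPKM in MDA-MB-231 after DAC. The limit covers counting error only, and the HMLER values, merged over 2 libraries, gave no such scale.

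The 26 transcripts on in untreated HMLER and silent in untreated MDA-MB-231 included the basal epithelial keratins. KRT14, which pairs with keratin 5 in basal cells of stratified and mammary epithelium, was at 11.6 FPKM in untreated HMLER and 52.2 FPKM after DAC, and was listed at 0 and then at 0.0495 FPKM in MDA-MB-231. KRT5 was at 9.85 and 37.1 FPKM in HMLER and at 0.0112 and 0 FPKM in MDA-MB-231. KRT17, also of basal cells, was at 6.33 and 117.9 FPKM in HMLER and at 0 and 0.293 FPKM in MDA-MB-231. Each of these genes has 1 transcript in the MDA-MB-231 table, and their silence there held after DAC for KRT5 and KRT14. The KRT5 start (chr12:52520345-52520644 on GRCh38.p14, minus strand, RefSeq) holds 7 CpG sites, in capitals, and is shown as a start with few CpG sites in a gene that stayed near 0 in MDA-MB-231 after DAC. It is not typical of its class, whose median was 17 at the annotated starts compared below, where KRT5 had 4.
KRT5: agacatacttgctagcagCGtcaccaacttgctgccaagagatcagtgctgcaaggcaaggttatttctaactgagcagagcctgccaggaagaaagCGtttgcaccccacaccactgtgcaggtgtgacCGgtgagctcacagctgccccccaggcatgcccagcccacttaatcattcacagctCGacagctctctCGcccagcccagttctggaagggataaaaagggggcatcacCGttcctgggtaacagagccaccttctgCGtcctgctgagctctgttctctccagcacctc

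SERPINB5, or maspin, a serpin of normal mammary epithelium known as a tumour suppressor, was at 35.4 FPKM in untreated HMLER and 91.6 FPKM after DAC, against 0.0193 and 1.20 FPKM in MDA-MB-231. ESRG, a noncoding RNA of pluripotent stem cells, was at 53.8 and 140.6 FPKM in HMLER and listed at 0 in MDA-MB-231 under both conditions. SAA1, an acute-phase apolipoprotein with close copies, was at 42.3 and 179.4 FPKM in HMLER and at 0.0719 and 0.797 FPKM in MDA-MB-231, where 3 reads would give 0.240 FPKM. These were the 3 highest untreated HMLER levels of the class. RHOD, a small GTPase of endosome movement, was at 19.4 and 43.7 FPKM in HMLER and at 0 and 1.88 FPKM in MDA-MB-231. AREG, or amphiregulin, a ligand of the EGF receptor, was at 10.98 and 24.4 FPKM in HMLER and at 0.0681 and 0.776 FPKM in MDA-MB-231. AREG is listed with 2 transcripts for MDA-MB-231, and their untreated sum was also 0.0681 FPKM. Whether these are copies that share reads was not tested, so the silence of AREG is uncertain. GREM1, a secreted BMP antagonist, was at 11.02 and 56.5 FPKM in HMLER and at 1.85e-07 and 4.44 FPKM in MDA-MB-231. MT1G, a zinc- and copper-binding metallothionein, was at 8.04 and 19.2 FPKM in HMLER and at 0 and 0.369 FPKM in MDA-MB-231, where 3 reads would give 0.446 FPKM.

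Not every transcript of this class stood for a silent gene. Summed over the transcripts of a gene, the untreated MDA-MB-231 level was 1 FPKM or more for 8 of the 26, and 5 FPKM or more for 5, among them GNL3 (152.3 FPKM), SLC44A2 (79.9 FPKM), TCEB1 (49.6 FPKM) and CHORDC1 (29.4 FPKM). In these genes another transcript was assigned the reads in MDA-MB-231, and the listed one was at or near 0. FAS, the death receptor, summed to 2.35 FPKM, MICA to 2.50 FPKM and ISYNA1 to 1.93 FPKM. TCEB1, ISYNA1 and the MHC-region and housekeeping genes given next were chosen for mention after their values had been seen. The values of TAP1 (23.4 FPKM in HMLER, 0 in MDA-MB-231) and MICA (8.67 and 0 FPKM) were not read as levels, since genes of the MHC region that have copies on alternate haplotypes of hg19 were near 0 in MDA-MB-231 even where every cell uses them: RPS18, a ribosomal protein gene, summed to 0.416 FPKM, BAG6 to 0 and FLOT1 to 0.0305 FPKM, while GAPDH was at 2374 FPKM and ACTB at 3376 FPKM. All 10 shared transcripts of genes with such copies were silent in MDA-MB-231. Without them and with the sum of the gene under 0.1 FPKM, 15 of the 26 remained, of which SERPINB5, RHOD and GREM1 reached 1 FPKM in MDA-MB-231 after DAC. AREG, whose silence is uncertain for the reason given above, is among the 15.

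**Figure D4:**
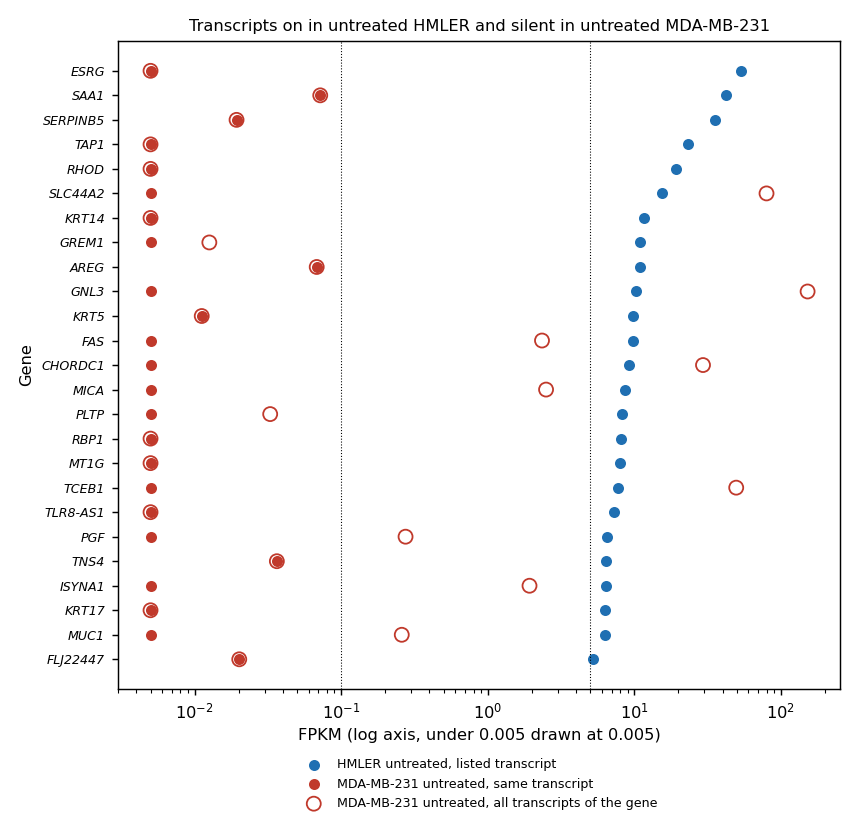
Untreated levels in FPKM (log axis) of 25 of the 26 transcripts on in HMLER (blue) and silent in MDA-MB-231 (filled red), with open red circles for the sum over all transcripts of the gene in MDA-MB-231 and dotted lines at 0.1 and 5 FPKM. For 7 of the genes drawn the open circle lies at 1 FPKM or more, 4 of them at 5 FPKM or more, and for KRT14, KRT5, KRT17 and SERPINB5 it coincides with the filled red point.

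Among the 198 transcripts on in both untreated lines, the 5 with the highest lower level were ODC1, SFN, EBNA1BP2, HN1 and CLTB. ODC1, the first enzyme of polyamine synthesis, was at 104.9 FPKM in HMLER and 203.2 FPKM [102.9 to 303.5] in MDA-MB-231. SFN, or 14-3-3 sigma, a cell-cycle brake of epithelial cells, was at 101.3 FPKM in HMLER and 126.1 FPKM [69.3 to 182.9] in MDA-MB-231. EBNA1BP2, a factor of ribosome assembly, was at 94.3 and 272.1 FPKM, HN1 at 93.6 and 144.6 FPKM, and CLTB, a clathrin light chain, at 92.8 and 158.4 FPKM. SFN is also on the list of genes known to be methylated in breast cancer, and it was among the highest of the shared transcripts in both lines.

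The labelled lines were checked against markers of their cell types. In untreated MDA-MB-231, of 5 mesenchymal markers VIM (3066 FPKM), AXL (400.3 FPKM) and ZEB1 (31.1 FPKM) were on, whereas SPARC (2.09 FPKM) was low and CDH2 (0.0902 FPKM) silent. CDH1 (E-cadherin), GRHL2, ESR1, PGR and TP63 were at 0 and ESRP1 was at 0.0270 FPKM, while EPCAM was on at 7.90 FPKM and the simple-epithelial keratins KRT8 and KRT18 were at 154.4 and 173.5 FPKM. Of the 6 basal markers only ITGA6 (53.97 FPKM) was on in MDA-MB-231 and the other 5 were under 0.1 FPKM. None of the mesenchymal markers, nor CDH1, is in the HMLER table. Of the 6 basal markers KRT5, KRT14 and KRT17 are listed for HMLER and were on, while the listed transcripts of the luminal markers FOXA1 (0.534 FPKM) and KRT19 (0.190 FPKM) and of EPCAM (0.450 FPKM) were low there. None of the 14 fibroblast markers was on in MDA-MB-231, and none is in the HMLER table.

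Among keratins, filament proteins of epithelia, most of the shared transcripts were lower in untreated MDA-MB-231 than in untreated HMLER. Only 10 of the 56 keratin symbols quantified for MDA-MB-231 were shared, so the family as a whole was not compared. KRT8 and KRT18 (154.4 and 173.5 FPKM in untreated MDA-MB-231) have no HMLER value. Of 10 shared keratin transcripts, 6 were 10-fold or more higher in HMLER and 0 in MDA-MB-231, with medians of 3.31 and 0.0133 FPKM, where the medians over all shared transcripts were 1.05 and 1.02 FPKM. Of all shared transcripts 9.21% were 10-fold or more higher in HMLER and 6.03% in MDA-MB-231, shares that depended on the value added before taking logs. KRT81, a hair keratin, was at 31.2 FPKM in HMLER and 0.330 FPKM in MDA-MB-231, whereas KRT80 was the higher in MDA-MB-231 (4.26 and 10.9 FPKM). The genes of epithelial junctions and identity were divided: of 22 transcripts, EVPL was on in MDA-MB-231 alone, a transcript of MUC1 in HMLER alone, SFN, SPINT2 and KLF5 in both, and CLDN6 in neither. Of the 22, 13.6% were on in both and 4.5% silent in both, where 9.86% and 5.98% of all shared transcripts were. Of the 13 metallothionein symbols of the MDA-MB-231 table, 3 were on there, and 4 others are in both tables. The 4 shared transcripts were listed at 0 in untreated MDA-MB-231 and lay between 0.537 FPKM (MT1A) and 8.04 FPKM (MT1G) in HMLER. They are short, and 3 reads would give from 0.204 FPKM (MT3) to 0.446 FPKM (MT1A and MT1G) in MDA-MB-231, so a listing at 0 does not show silence for them. Of 12 imprinted transcripts, 5 were 10-fold or more higher in HMLER and 0 in MDA-MB-231, among them 3 transcripts of MEG3, a maternally expressed noncoding RNA, at 3.90, 1.45 and 1.28 FPKM in HMLER and 0 in MDA-MB-231.

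Over 25 cytokine and chemokine transcripts the median difference was -1.99 (MDA-MB-231 over HMLER, log2(FPKM + 0.1) scale), where it was 0.02 over all shared transcripts. Of the 25, 6 were 10-fold or more higher in HMLER and 0 in MDA-MB-231. Over all shared transcripts 9.21% were 10-fold or more higher in HMLER and 6.03% in MDA-MB-231, and the same shares apply to the lists that follow. Interferon-stimulated genes were less separated than the cytokines: of 29 transcripts, 1 was 10-fold or more higher in MDA-MB-231 and 3 in HMLER, and the median difference was -0.32. Genes with haplotype copies, whose 0 in MDA-MB-231 was not read as a level, were not removed from the counts of the lists. ISG15, a ubiquitin-like modifier induced by interferon, was on in both lines at 20.04 and 71.4 FPKM. As listed, the EGF family was divided by ligand. AREG was on in HMLER alone, HBEGF (5.35 and 84.5 FPKM) was on in both and higher in MDA-MB-231, and 1 transcript of NRG1 was at 1.09 FPKM in HMLER and 24.1 FPKM [8.51 to 39.7] in MDA-MB-231. The silence of AREG in MDA-MB-231 is uncertain, as stated above. TGF-beta family antagonists were likewise on opposite sides, with GREM1 on in HMLER alone and NOG, or noggin, at 0.365 FPKM in HMLER and 25.8 FPKM [13.1 to 38.4] in MDA-MB-231. DKK1, a secreted Wnt antagonist, was on in both at 5.02 and 115.6 FPKM. Of 18 transcripts of genes known to be methylated in breast cancer, 4 were 10-fold or more higher in each line, and UCHL1, a neuronal ubiquitin hydrolase, was at 84.2 FPKM in HMLER and 0.408 FPKM in MDA-MB-231. Of the 10 HOX transcripts, HOXD13 was silent in both lines (10%) and 2 were 10-fold or more higher in HMLER. Zinc-finger ZNF transcripts, 96 in number, held 2 transcripts silent in both lines (2.08%), 4 on in both (4.17%), and 12 silent in MDA-MB-231. Over all shared transcripts 5.98% were silent in both lines, 9.86% were on in both and 28.9% were silent in MDA-MB-231. KRT81, KRT80, MEG3, MT1A, MT3, NRG1, NOG and UCHL1 were chosen for mention after their values had been seen.

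In the remaining lists the counts can be set beside all 2008 shared transcripts, of which 5.98% were silent in both lines and 9.86% on in both. Of 9 germ-cell and meiosis transcripts, 3 (33.3%; TDRD12, HORMAD1 and TDRD1) were silent in both lines, and of 25 developmental transcription factors 4 (16%) were, among them PITX3, SOX30 and FOXL2. Of 11 neuronal transcripts NEFL, a neurofilament, and SNCB, a synuclein, were silent in both (18.2%) and TUBB3 was on in both, at 32.04 FPKM in HMLER and 109.9 FPKM in MDA-MB-231. Among 19 matrix proteases, KLK10, MMP13 and PRSS50 were silent in both (15.8%) and PLAU, the urokinase, and MMP1, an interstitial collagenase, were on in both. PLAU was at 41.1 and 82.8 FPKM and MMP1 at 7.10 and 16.2 FPKM in untreated HMLER and MDA-MB-231. Among 16 protease inhibitors, SERPINB7, SPINK1 and WFDC5 were silent in both (18.75%). The 22 transcripts of the BCL2 family, caspases and p53 targets held 6 on in both (27.3%) and 0 silent in HMLER, with CDKN1A, the p21 cell-cycle inhibitor, at 75.9 FPKM in HMLER and 10.9 FPKM in MDA-MB-231. Smooth-muscle type contractile genes (12 transcripts) held 3 on in both, of which MYL9, a myosin light chain, was at 14.6 and 52.5 FPKM. TNF superfamily genes (10 transcripts) held TNFRSF4 silent in both, a listed transcript of FAS on in HMLER alone (the gene summed to 2.35 FPKM in MDA-MB-231) and TNFRSF10A, a TRAIL receptor, on in both. Collagens, laminins and integrins (10) and histones (19) each held 2 on in both, and Wnt and Notch genes (14) held DKK1. Mesenchymal and EMT genes (10) held PLAU on in both and GREM1 in HMLER alone, and luminal and hormone-response genes (7) held AREG (uncertain, as stated above) and a transcript of MUC1 in HMLER alone. Long intergenic noncoding RNAs (21), MHC class II and co-stimulation genes (4), S100 proteins and annexins (4), semaphorins, ephrins and Slits (3), protocadherins (2), and netrins, their receptors and DAP kinases (2) held 0 in the 4 classes, and the 2 shared blood cell markers were in none.

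The CpG content of the gene starts was compared across the classes on GRCh37, the build of the files, in 300 bases around the start annotated by GENCODE. The 8 genes silent in HMLER and on in MDA-MB-231 had a median of 9 CpG sites (quartiles 7.75 and 15.5), and the 111 matched genes of the 120 silent in both had 13 (5 and 24.5). The 25 matched genes on in HMLER and silent in MDA-MB-231 had 17 (10 and 27), and the 190 matched genes on in both had 23 (12 and 32). Over the 1751 matched symbols in both tables the median was 19 (8 and 30), and over the 22056 matched symbols of the MDA-MB-231 table it was 16 (5 and 28). The medians of the 4 classes thus differed, while their quartile ranges overlapped. Each gene was counted at 1 annotated start, which need not be the start of the listed transcript. The medians therefore describe annotated gene starts and not the promoters in use. Within the 8, SLC17A9 had the most with 22 and MARCH4 the fewest with 6. The ratio of observed to expected CpG sites was 0.6 or more in 12.5% of the 8, 45.0% of those silent in both, 56.0% of those on in HMLER alone and 70.5% of those on in both, against 59.9% of all matched symbols in both tables. The annotated starts differ from those of the RefSeq windows printed above for some genes, CLDN6 having 30 CpG sites in this window and KRT5 having 4.

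**Figure D5:**
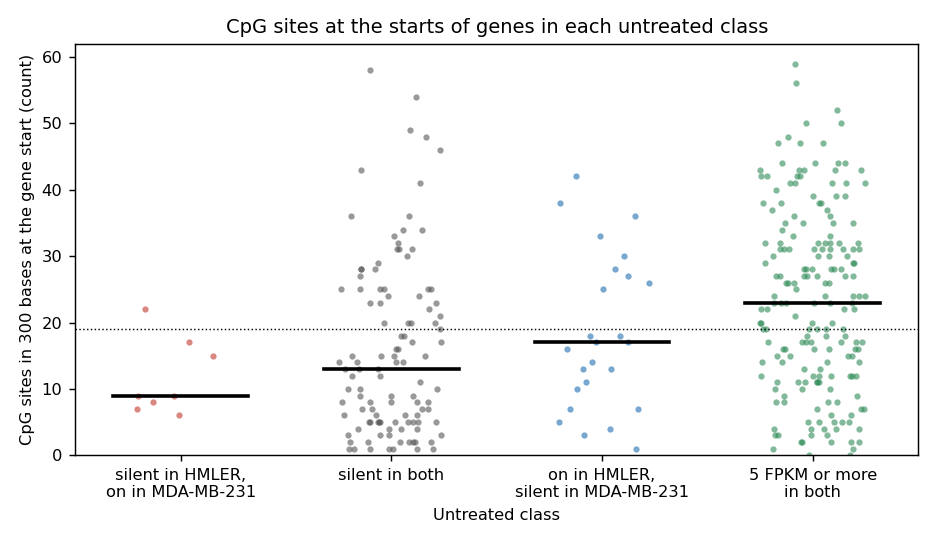
CpG sites in 300 bases at the gene start (vertical axis, count) for each gene of the 4 untreated classes, 1 point per gene, with a black bar at the class median and a dotted line at 19, the median of all matched symbols in both tables. The medians are 9, 13, 17 and 23 from left to right, and the points of the classes overlap.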

How the data were processed

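Poly(A) RNA was sequenced from 6 libraries (TruSeq). According to the submitters' notes, reads were aligned to hg19 with TopHat2 and levels estimated with Cuffdiff (versions not given in the sources used here). The authors deposited FPKM values, merged over 2 libraries in HMLER and with lower and upper bounds in MDA-MB-231, beside their own log2 fold changes, test statistics, p-values and q-values, which were not used. Read totals are not given, so depth was estimated only for MDA-MB-231, from the steps of its low values. Tables were joined on the RefSeq transcript identifier. 1 HMLER transcript had no partner and was not analysed here, and 1 shared transcript had a failed status. FPKM values of both tables were used as deposited, with a pseudocount of 0.1 FPKM for log2 differences. Every comparison is a count, rank or difference without a test. Named genes were the 8 silent in HMLER and on in MDA-MB-231, the 15 silent in both with the highest level after DAC in HMLER and the 10 with the highest in MDA-MB-231, the 15 highest of those on in HMLER alone, the 5 highest in both, DAPK1, the 2 nearest to each threshold and up to 4 class members per list, with others marked as chosen later. Members and lists were chosen with earlier results of these data known. The 34 gene lists are described by counts. Some items are not reported here. The code for the class calls was run on simulated data for the 2008 transcripts, where 200 of 200 planted transcripts were recovered and 0 others were called. The simulated levels were drawn on the set side of each threshold with no counting error. This outcome was therefore fixed in advance and does not measure the accuracy of the calls. Gene positions are from GENCODE lifted to GRCh37. Python 3.11.15 with numpy 2.4.6, pandas 2.3.3 and matplotlib 3.10.9 was used.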

Additional observations from a re-analysis of the deposited data

Results flagged for a closer look

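After DAC, EDN1 and EVPL were lower in MDA-MB-231 and higher in HMLER than in the untreated cells, the level being higher in HMLER for every transcript listed there. For EDN1 the ratio of treated to untreated FPKM was 0.286 in MDA-MB-231, and the Cuffdiff bounds before DAC (17.0 to 49.9 FPKM) and after it (3.46 to 15.7 FPKM) did not overlap. For EVPL the ratio in MDA-MB-231 was 0.493, and the bounds (12.1 to 32.1 FPKM before and 5.86 to 15.9 FPKM after) overlapped. The difference between the lines was not tested, since each line has 1 value per condition.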

How the results depend on the processing

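No paired analysis was possible because the replicate numbers in the labels belong to HMLER libraries that were merged into 1 value per condition, and for the same reason no library could be left out. Of 54 alternatives computed, 33 kept the value within 1.5 times of the reported one or, for the rank correlation, within its interval, and 21 moved it further. Counts are given in the order silent in HMLER and on in MDA-MB-231 (8 reported), silent in both (120) and on in HMLER and silent in MDA-MB-231 (26). With silence under 0.05 FPKM the first 2 were 2 and 72, with silence under 0.25 FPKM they were 22 and 253, and with silence at exactly 0 the 3 were 1, 42 and 15. With on at 2 FPKM the first was 15 and the third 75, and with on at 10 FPKM the third was 11. With only genes that have 1 transcript (chosen after seeing the data, as were the removal of haplotype genes, the 3-read limit and the scaling of the 10-fold counts) the first was 5 and the third 10. The 10-fold counts (121 higher in MDA-MB-231 and 185 in HMLER) were 55 and 24 with a pseudocount of 1 FPKM, and 71 and 88 over genes with 1 transcript. The count in HMLER was 424 with a pseudocount of 0.01 FPKM, and the count in MDA-MB-231 was 52 after scaling. Of the transcripts silent in both, 10 reached 2 FPKM in MDA-MB-231 after DAC, against 30 reaching 1 FPKM. Of the 8, 6 reached 2 FPKM and 1 reached 10 FPKM in HMLER after DAC, against 2 reaching 5 FPKM. Smaller counts over fewer genes follow from the restriction itself, and the cause of the other changes was not tested.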
